A study of Solanum lycopersicum with 6 samples.

Results

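The genes described here are 7 loci of the tomato circadian clock, of 25440 loci measured in tomato axillary buds, the side shoots set in the angle between leaf and stem. They were chosen by identifier, though with earlier results of these data known. They are LHY (Solyc10g005080), LNK2 (Solyc01g068560), a pair of TOC1-like genes (Solyc03g115770, here TOC1-like A, and Solyc06g069690, here TOC1-like B), a pair of GIGANTEA genes (Solyc04g071990, here GIGANTEA A, and Solyc12g056650, here GIGANTEA B) and EID1 (Solyc09g075080). These names are published assignments; the expression table holds no gene names, and none of the 7 symbols is in the RefSeq gene table (assembly SLM_r2.1), so the label could not be checked against an annotation. RNA sequencing was done on 3 libraries of the cultivar labelled monomaker, titled WT, and 3 of the cultivar labelled Compound raceme, titled BJ, both grown in a greenhouse. The labels give no genotype or allele, no plant age, no day length and no hour of collection, and do not say whether libraries came from separate or pooled plants. The p-values below therefore reflect how far these libraries spread, and that spread may be technical.

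The clock is a transcriptional loop that lets a plant keep time over the day. From work in Arabidopsis, LHY is a MYB-type factor that accumulates around dawn and represses genes of the evening, among them TOC1 and GIGANTEA; TOC1 in turn represses LHY at night. GIGANTEA accumulates late in the day and links the clock to the day-length control of flowering through CONSTANS, and LNK proteins are coactivators recruited by relatives of LHY. In tomato, EID1, an F-box gene of phytochrome signalling, and LNK2 are known because cultivated plants carry alleles of them that slow the clock. Since LHY and GIGANTEA peak at opposite parts of the day, their levels in a library also bear on the hour at which it was collected.

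Levels are in FPKM, fragments scaled to transcript length and library total, so genes can be set beside each other; values of 2 rows of a locus were summed. The 7 genes kept nearly the same order of level in all 6 libraries. LNK2, GIGANTEA A and GIGANTEA B were the 3 highest in every library, at 23.6 to 81.0 FPKM, and their order among themselves changed between libraries. EID1 was the fourth at 7.0 to 9.87 FPKM and LHY the fifth at 2.88 to 7.54 FPKM, EID1 lying above LHY in all 6 libraries by a factor of 1.13 to 2.73. The TOC1-like genes were the lowest, at 0 to 4.67 FPKM. Read against all loci with a value above 0 in the same library, GIGANTEA B stood at percentile 88.7 to 93.3, LHY at 30.9 to 46.3 and TOC1-like A at 17.3 to 26.1.

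**Figure D1:**
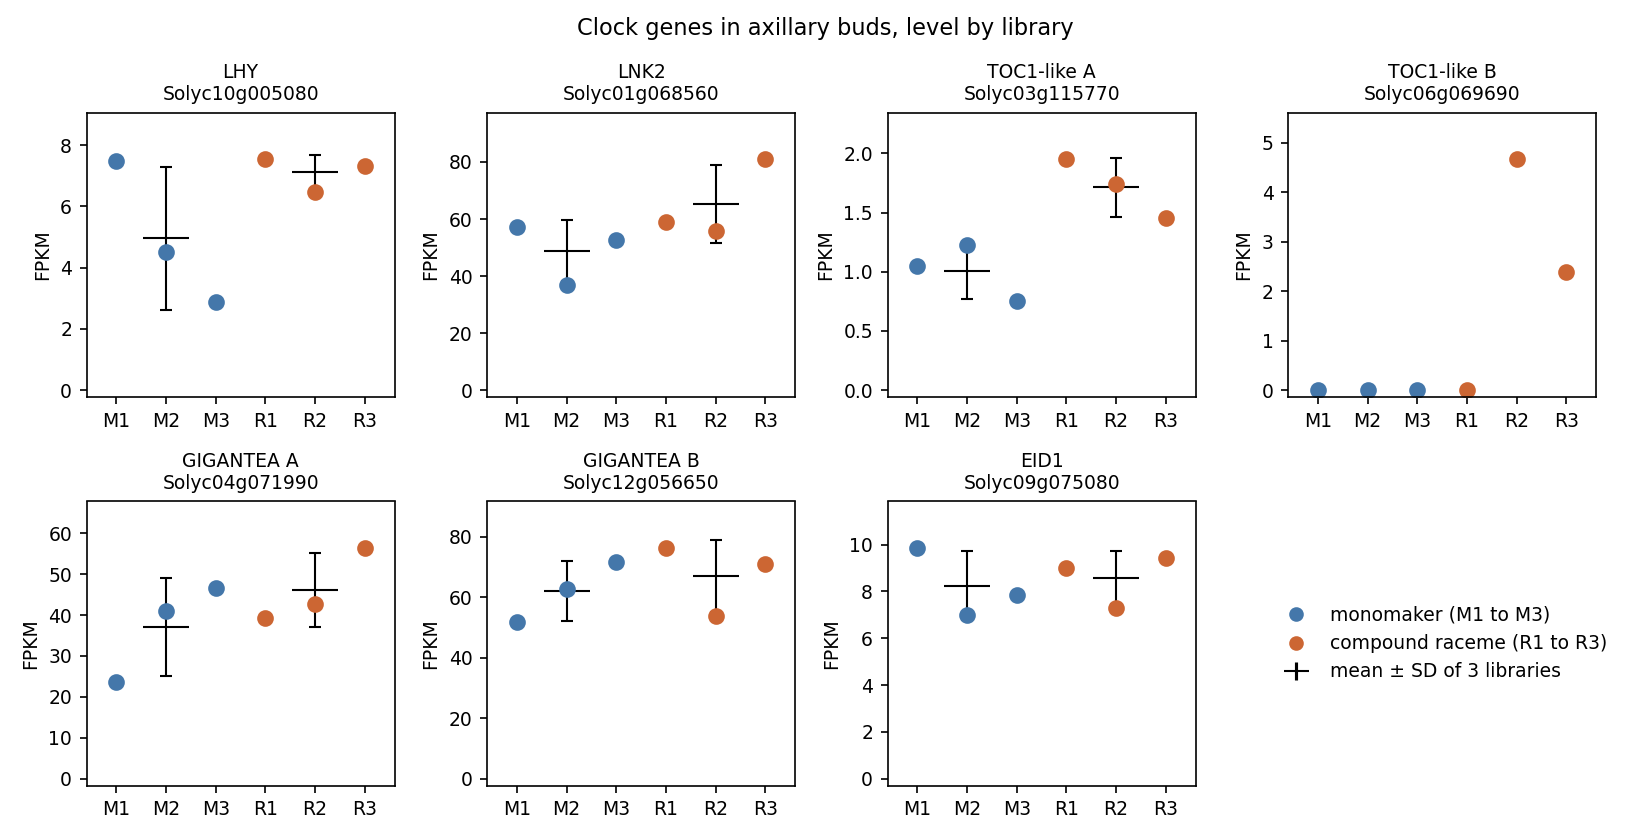
FPKM of each clock gene (vertical axes, from 0) in the 3 monomaker libraries (M1 to M3) and the 3 Compound raceme libraries (R1 to R3), with the mean ± SD of each cultivar except for TOC1-like B. LHY was at 2.88 to 7.48 FPKM in monomaker, against 6.47 to 7.54 FPKM in Compound raceme, and TOC1-like B was listed above 0 in R2 and R3 only.

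None of the 7 clock genes passed an adjusted p of 0.05 in limma for the difference between cultivars; the test called 3.27% of the 18802 loci tested (0.75% higher and 2.52% lower in Compound raceme). At an unadjusted limma p below 0.05 the count was also 0 of 7, against 25.7% of all tested loci. All 7 log2 fold changes, taken as Compound raceme minus monomaker of log2(FPKM + 1), were above 0, also under the scalings tried; the added 1 makes changes of low genes look smaller. Their median was 0.41. Over all tested loci 53.9% were above 0 and the median was 0.04. The 95% intervals all included 0. In the authors' deposited table, 0 of the 10 rows of these loci had a q-value below 0.05, against 10.2% of all rows there. Those of the TOC1-like genes, 2 of the 10 rows, had in the authors' deposited table an unadjusted p-value below 0.05, a share near the 21.4% of all its rows.

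**Figure D2:**
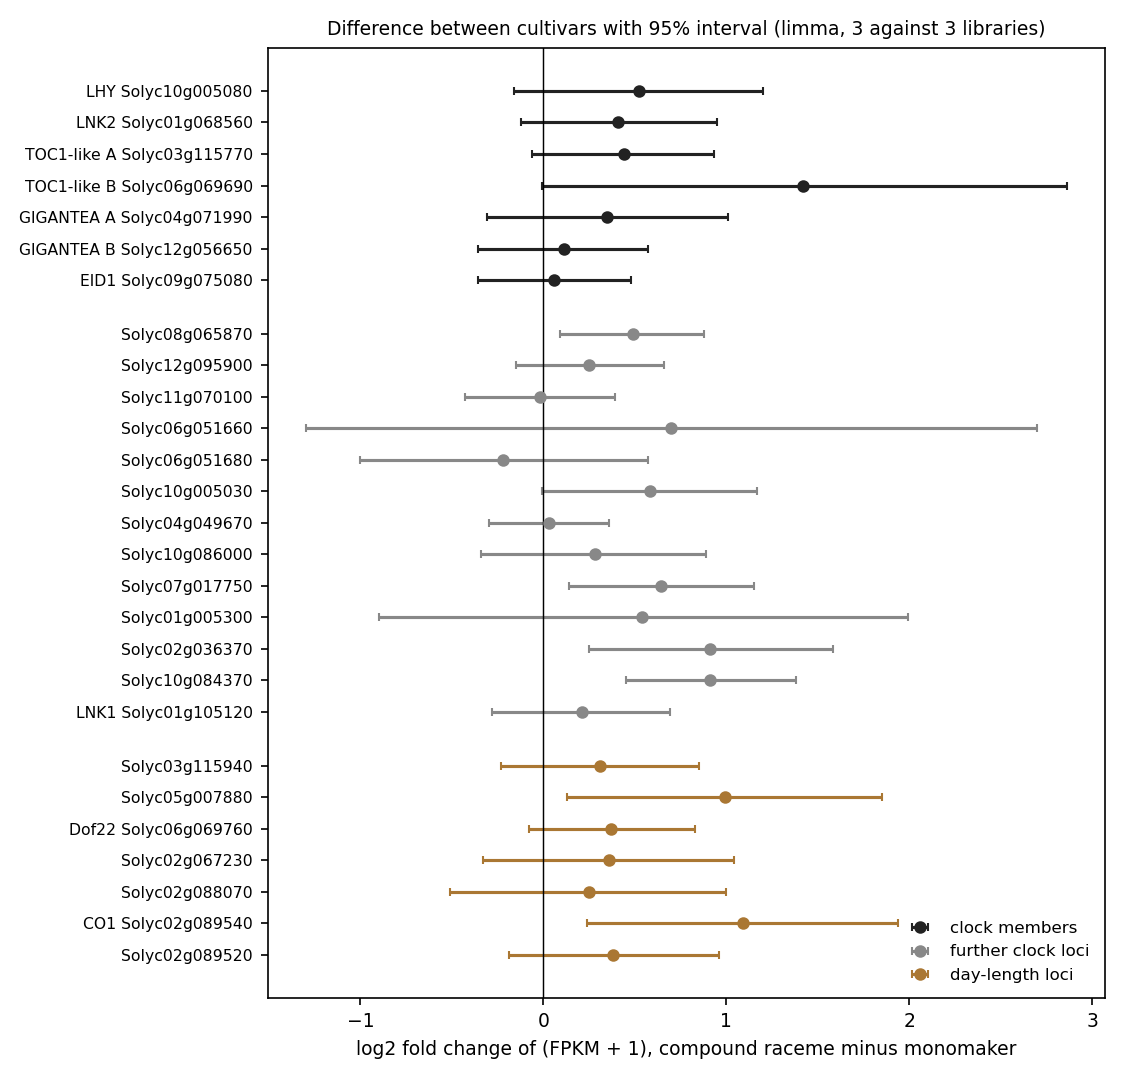
Log2 fold change of FPKM + 1, Compound raceme minus monomaker (horizontal axis), with its 95% limma interval for the 7 clock genes (black), 13 further clock loci (grey) and 7 day-length loci (brown). The intervals of all 7 clock genes include 0, and TOC1-like B has the widest of them, from -0.01 to 2.86.

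LHY, the dawn factor, was at 7.48, 4.52 and 2.88 FPKM in monomaker 1, 2 and 3 and at 7.54, 6.47 and 7.33 FPKM in Compound raceme 1, 2 and 3. Monomaker 1 lay within the Compound raceme range, while monomaker 2 and 3 lay below it. The means were 4.96 ± 2.33 FPKM and 7.11 ± 0.567 FPKM (SD, n = 3 each), and the log2 fold change was 0.52 (SE 0.29, 95% interval -0.16 to 1.2, adjusted p = 0.297 in limma). Without monomaker 1 it was 0.81, with an adjusted limma p of 0.0607. Without monomaker 3 it was 0.24, with an adjusted limma p of 0.568. Over all loci these fits called 2041 and 15, against 614 with all libraries, so the change in adjusted p is not particular to LHY. LHY also varied more within a cultivar than loci of a like level: the pooled SD was 0.41 on the log2 scale against a median of 0.27 over 6368 loci within a factor of 2 of its mean. That spread, taken on the sum of 2 LHY rows, came from monomaker, where the SD was 0.56, against 0.10 in Compound raceme.

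The LHY value is the sum of 2 rows, which did not keep the same share. The row with coordinates (chromosome 10, 55713 to 79438 of SL3.0, plus strand) gave 34.2%, 45.4% and 47.6% of the sum in monomaker 1, 2 and 3 and 66.2%, 34.8% and 31.5% in Compound raceme 1, 2 and 3. Compound raceme 1 was the 1 library in which that row exceeded the other, at 4.99 against 2.55 FPKM. This row's span of 23726 bases overlaps 1 other row of the table that has coordinates, Solyc10g005060, so reads of these loci may not be separable. In the authors' deposited table the log2 ratios of these rows were 0.60 (q = 0.377) with coordinates and 0.38 (q = 0.727) without.

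LNK2 (its row with coordinates lies on chromosome 1, 77582465 to 77589204 of SL3.0, minus strand) was at 57.2, 36.8 and 52.6 FPKM in monomaker and at 59.0, 55.7 and 81.0 FPKM in Compound raceme. The cultivars overlapped only through monomaker 1, which exceeded Compound raceme 2. The log2 fold change was 0.41 (SE 0.23, 95% interval -0.12 to 0.95, adjusted p = 0.291 in limma). It was 0.23 without monomaker 2 and 0.25 without Compound raceme 3. The row with coordinates carried 29.1% to 39.9% of the LNK2 sum in the 6 libraries, a narrower span than for LHY. LNK1, the related gene (Solyc01g105120), was at 67.7, 44.0 and 62.2 FPKM in monomaker and at 76.7, 58.5 and 64.0 FPKM in Compound raceme, with a log2 fold change of 0.21 (adjusted p = 0.548 in limma). For both LNK genes monomaker 2 was the lowest library.

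TOC1-like A, of the family that represses LHY, was the 1 clock gene of the 7 whose cultivars did not overlap, which among all tested loci was so for 16.4% in this direction and for 31.7% in either. It was at 1.05, 1.23 and 0.75 FPKM in monomaker and at 1.95, 1.74 and 1.45 FPKM in Compound raceme. All of these values are low, near the mean of 1 FPKM that a locus needed to be tested. The means were 1.01 ± 0.242 and 1.71 ± 0.251 FPKM (SD, n = 3 each), with a log2 fold change of 0.44 (SE 0.21, 95% interval -0.06 to 0.93, adjusted p = 0.238 in limma). Its authors' deposited table entry was a log2 ratio of 0.69 with a p-value of 0.0403 and a q-value of 0.205.

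TOC1-like B was listed at 0 in all 3 monomaker libraries and in Compound raceme 1. Compound raceme 2 and 3 had 4.67 and 2.40 FPKM. The 2 libraries in which it had a value exceeded every TOC1-like A value. It passed the filter on low values only through those libraries, and without either of them it fell below it. The log2 fold change was 1.42 (SE 0.60, 95% interval -0.01 to 2.86, adjusted p = 0.197 in limma). Against a cultivar listed at 0 throughout, this value is set by the 1 FPKM added before the log: it was 1.97 with 0.5 added and 3.41 with 0.1. Without Compound raceme 1, the library of its cultivar at 0, it was 2.13 with an adjusted limma p of 0.0364. That leaves only zeros against the values through which the locus passed the filter, so the call supports nothing. A value of 0 in a table without counts can also be a failed estimate, and whether that was so here was not tested. In both TOC1-like genes, reads may be split with related copies.

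GIGANTEA A, one of the late-day genes, was at 23.6, 41.0 and 46.6 FPKM in monomaker and at 39.3, 42.7 and 56.5 FPKM in Compound raceme. Monomaker 1 was the lowest library and Compound raceme 3 the highest, and the other 4 lay between 39.3 and 46.6 FPKM with the cultivars mixed. The log2 fold change was 0.35 (SE 0.28, 95% interval -0.31 to 1.01, adjusted p = 0.458 in limma). It was 0.06 without monomaker 1, 0.19 without Compound raceme 3 and 0.54 without monomaker 3. Within a cultivar its SD was 0.40 on the log2 scale, against a median of 0.23 over 5025 loci of a like mean.

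GIGANTEA B (its row with coordinates lies on chromosome 12, 63578700 to 63592785 of SL3.0, minus strand) was at 51.7, 62.9 and 71.6 FPKM in monomaker and at 76.4, 53.7 and 71.1 FPKM in Compound raceme. The ranges overlapped almost fully. The log2 fold change was 0.11 (SE 0.20, 95% interval -0.36 to 0.57, adjusted p = 0.758 in limma), and it was -0.02 without monomaker 1. GIGANTEA B exceeded GIGANTEA A in all 6 libraries, by a factor of 2.19, 1.54 and 1.53 in monomaker 1, 2 and 3 and of 1.95, 1.26 and 1.26 in Compound raceme 1, 2 and 3. The factor was highest in library 1 of each cultivar. The labels do not say that a number marks a shared batch or day, and the copies may share reads, so this is a description of the libraries. Summed, the pair gave 99.1 ± 21.8 FPKM in monomaker, against 113 ± 15.8 FPKM in Compound raceme (SD, n = 3 each).

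EID1, the F-box gene of light input, had the narrowest span of the 7 across libraries. It was at 9.87, 7.0 and 7.85 FPKM in monomaker and at 9.02, 7.31 and 9.43 FPKM in Compound raceme. Its highest value was 1.41 times its lowest, against 1.48 times for GIGANTEA B, 2.62 times for LHY and 2.39 times for GIGANTEA A. The log2 fold change was 0.06 (SE 0.18, 95% interval -0.36 to 0.48, adjusted p = 0.858 in limma).

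Because LHY and GIGANTEA peak apart, their ratio is given for each library, as it bears on the hour of collection. It rests on these genes alone, and the hour itself was not tested. The linear ratio of 2 genes in 1 library does not depend on how that library was scaled. The summed GIGANTEA level was 10.1, 23.0 and 41.0 times that of LHY in monomaker 1, 2 and 3, and 15.3, 14.9 and 17.4 times in Compound raceme 1, 2 and 3. GIGANTEA therefore exceeded LHY in every library, and the Compound raceme libraries lay close together inside the monomaker range. On the log2 scale the ratio was 4.4 ± 1.02 in monomaker and 3.99 ± 0.12 in Compound raceme (SD, n = 3 each). The highest ratio was 4.08 times the lowest within monomaker and 1.17 times within Compound raceme, so the means of the cultivars differed by less than the spread within monomaker. The evenness within Compound raceme holds for the sum of the 2 LHY rows, which went opposite ways. In Compound raceme 1, 2 and 3 the LHY row with coordinates was at 4.99, 2.25 and 2.31 FPKM. The row without was at 2.55, 4.22 and 5.02 FPKM, so against either row alone the ratio was less even.

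**Figure D3:**
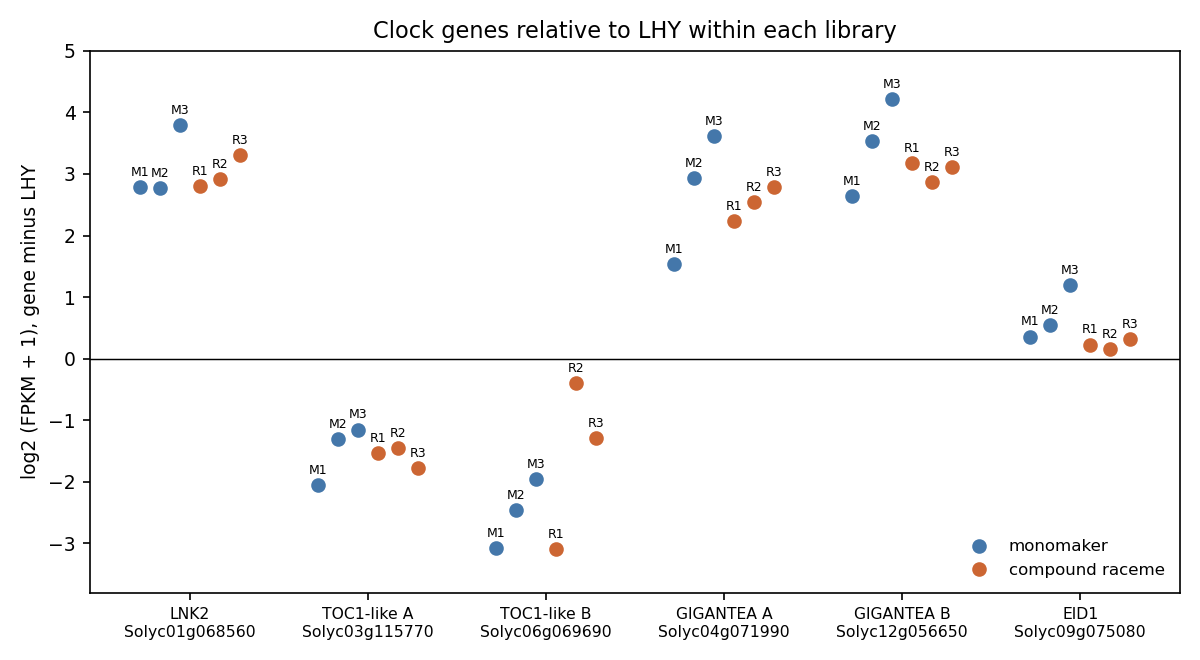
Log2(FPKM + 1) of each clock gene minus that of LHY in the same library (vertical axis), for monomaker (blue, M1 to M3) and Compound raceme (orange, R1 to R3). For GIGANTEA A the monomaker libraries span 1.54 to 3.62 and the Compound raceme libraries 2.24 to 2.79.

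LHY moved opposite to both GIGANTEA genes among the monomaker libraries, while among those of Compound raceme GIGANTEA A and B differed in this. Monomaker 1 had the highest LHY and the lowest GIGANTEA A and B of its cultivar. Monomaker 3 had the lowest LHY and the highest GIGANTEA A and B. Other members did not keep this order. TOC1-like A, low throughout, was lowest in monomaker 3, at 0.75 FPKM, and highest in monomaker 2, at 1.23 FPKM. LNK2 and EID1 were lowest in monomaker 2, at 36.8 and 7.0 FPKM. In Compound raceme, LHY and GIGANTEA B had the same order, with library 1 highest and library 2 lowest, and the GIGANTEA sum was also lowest in library 2, at 96.3 FPKM against 115.7 and 127.6 FPKM. GIGANTEA A was instead lowest in Compound raceme 1, where LHY was highest. The highest LHY value of Compound raceme was only 1.17 times its lowest, so its order there shows little. Relative to LHY, GIGANTEA A was 1.54, 2.93 and 3.62 on the log2(FPKM + 1) scale in monomaker 1, 2 and 3, and 2.24, 2.55 and 2.79 in Compound raceme 1, 2 and 3. EID1 relative to LHY was 0.36, 0.54 and 1.19 in monomaker and 0.23, 0.15 and 0.32 in Compound raceme. The cultivars did not overlap in this ratio, by the narrow gap of 0.36 against 0.32. As a level, not set against LHY, EID1 overlapped between the cultivars. Of all tested loci 31.7% did not overlap in level, and the share for ratios to LHY was not computed. TOC1-like A relative to LHY was -2.05, -1.31 and -1.15 in monomaker and -1.53, -1.45 and -1.77 in Compound raceme. The difference between the cultivars in these ratios ran from -0.46 for EID1 to 0.91 for TOC1-like B, which was listed at 0 in 4 libraries. The labels give no hour of collection, so a difference of cultivar and a difference of hour cannot be told apart in any of these values.

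Library 1 of monomaker also stood apart in other genes. Over the tested loci, which are not independent replicates, it correlated with Compound raceme 1 at 0.952 and with monomaker 2 and 3 at 0.935 and 0.917. Among the monomaker libraries both green leaf markers had the same order as GIGANTEA A and B, which was opposite to that of LHY. CAB12, which encodes a light-harvesting protein, was at 60.4, 439.7 and 722 FPKM in monomaker and at 46.0, 19.8 and 23.3 FPKM in Compound raceme. The Rubisco small subunit gene RBCS1, whose family holds near-identical copies, was at 673, 3306 and 4636 FPKM in monomaker, against 639, 250.1 and 738 FPKM. In monomaker 1, where LHY was highest and GIGANTEA lowest, both were far below monomaker 2 and 3. Their summed level was 734 to 5357 FPKM in monomaker, against 269.9 to 761 FPKM in Compound raceme, and their part in the clock values was not tested.

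**Figure D4:**
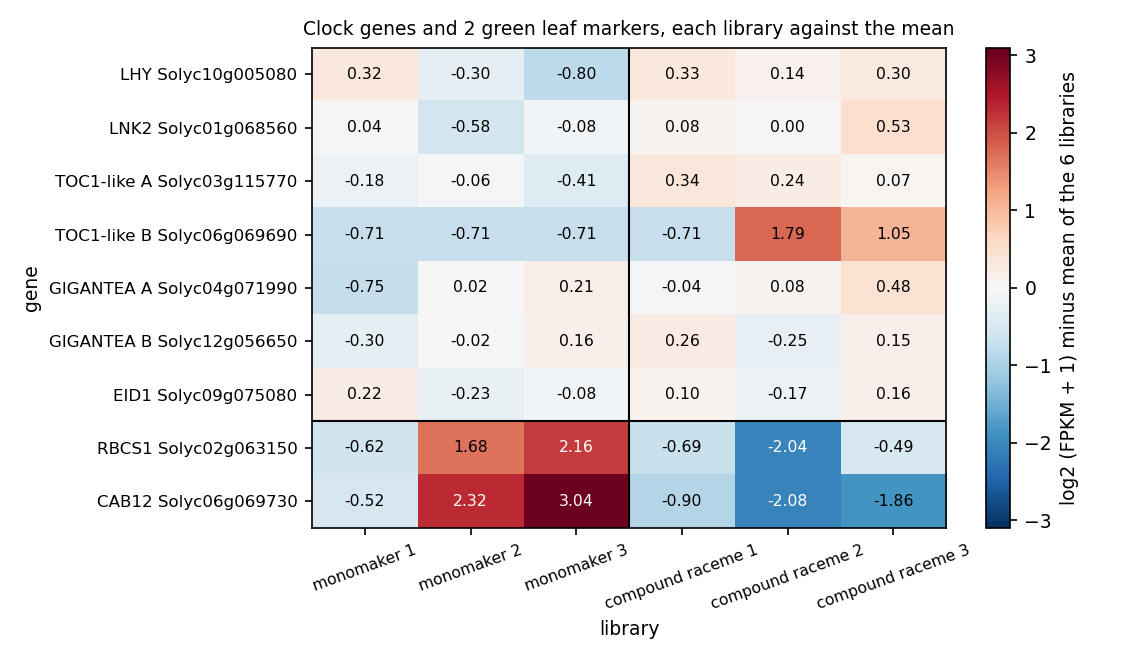
Log2(FPKM + 1) of each gene in each library minus its mean over the 6 libraries (colour and printed value), for the 7 clock genes and the green leaf markers RBCS1 and CAB12. Monomaker 3 is at -0.80 for LHY, 0.21 for GIGANTEA A and 3.04 for CAB12, and monomaker 1 is at 0.32, -0.75 and -0.52.

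Markers of the tissue were present in the libraries. The bud gene BRC1B was at 32.2, 27.2 and 11.5 FPKM in monomaker and at 53.9, 55.7 and 43.4 FPKM in Compound raceme, with a log2 fold change of 1.19 that was not called (adjusted p = 0.113 in limma). All 5 bud and meristem markers (BRC1B, BRC1A, LS, BL and TKN2) had values above 0 in every library. Of the 4 tested, 2 had a fold above 0 and 2 below, and 0 were called. BL was at 0.15 to 5.50 FPKM in monomaker and 0.31 to 2.11 FPKM in Compound raceme, and TKN2 at 7.13 to 16.5 FPKM and 2.08 to 18.9 FPKM, with Compound raceme 1 the lowest. LS lay at 0.35 to 1.23 FPKM over the 6 libraries. The list, most of it BRC1B, summed to 21.6 to 60.4 FPKM in monomaker, against 61.8 to 82.5 FPKM in Compound raceme. BRC1A, LS, BL and TKN2 each overlapped between the cultivars. All 4 dividing cell markers (CDKB2, CDKB1, CYCB1-2 and CYCA1) fell in Compound raceme in limma, from a summed 130.4 to 225 FPKM down to 16.2 to 33.9 FPKM. Their adjusted limma p was 0.0193 to 0.0201, and 2.52% of all tested loci were called lower. Of 4 floral organ markers, TM5 and TPI fell and TM6 and TAG1 were not called. TM6 went the other way without overlap, at 31.07 to 40.98 FPKM in monomaker and 49.45 to 80.11 FPKM in Compound raceme. Its log2 fold change was 0.82 (adjusted p = 0.0842 in limma). The list, most of it TM6, summed to 41.9 to 51.0 FPKM in monomaker and to 52.0 to 82.4 FPKM in Compound raceme. TM5 was listed at 0 in Compound raceme 1 and 2. The cultivars thus differed in markers of cell makeup, whose part in the clock values was not tested. In whole buds, fewer cells of a type and less RNA per cell cannot be told apart.

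A further 15 loci are placed by published assignments, as recalled, in other clock families: ELF3, ELF4 and LUX of the evening complex, the pseudo-response regulators, the ZTL and FKF1 light sensors, the REVEILLE relatives of LHY, and LNK1. LNK1 is the 1 of them with a RefSeq symbol, which lies on the same chromosome at a like place, so the others are given by identifier. Of the 13 that were tested, 0 were called and 11 had a fold above 0, with a median log2 fold change of 0.49 against 0.04 over all tested loci. Their cultivars did not overlap at 4 loci (30.8%), all higher in Compound raceme. Over all tested loci the share was 16.4% in this direction and 31.7% in either. An unadjusted limma p below 0.05 was reached by 4 of 13 (30.8%), against 25.7% of all tested loci. The 2 not tested, named because their values were low, were Solyc06g005680, at 0.05 to 0.42 FPKM, and Solyc06g036300, listed at 0 in 5 libraries and at 0.46 FPKM in monomaker 3.

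The largest folds in that list belonged to Solyc02g036370 and Solyc10g084370. Solyc10g084370 was at 32.8, 36.6 and 26.7 FPKM in monomaker and at 76.1, 55.7 and 52.6 FPKM in Compound raceme. All its Compound raceme values exceeded the monomaker ones, with a log2 fold change of 0.91 (SE 0.20, 95% interval 0.45 to 1.38) and an adjusted limma p of 0.0593 (0.0505 to 0.189 in the 16 alternatives). Solyc02g036370 was at 13.6, 17.0 and 9.30 FPKM in monomaker and at 33.2, 26.2 and 18.4 FPKM in Compound raceme, also without overlap. Its log2 fold change was 0.91 (SE 0.28, adjusted p = 0.114 in limma). For both, library 3 was the lowest of its cultivar.

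Some loci of the list varied more among libraries of a cultivar than between cultivar means. Solyc01g005300, named after its values were seen, was at 14.4, 57.4 and 63.5 FPKM in monomaker and at 31.4, 67.9 and 79.1 FPKM in Compound raceme. Library 1 was the lowest in each cultivar, as it was for GIGANTEA A. The log2 fold change was 0.54 (SE 0.61, adjusted p = 0.601 in limma). Solyc06g051660, also named after its values were seen, was at 5.69, 13.0 and 0.49 FPKM in monomaker and at 3.71, 15.5 and 6.75 FPKM in Compound raceme, a span of 31.5 times. The steadiest of the tested loci, Solyc04g049670, picked likewise, stayed between 110.0 and 123 FPKM in the 6 libraries, with a log2 fold change of 0.03 (95% interval -0.30 to 0.36).

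Day-length genes downstream of GIGANTEA were represented by 8 loci assigned, as recalled, to the CDF repressors and the CONSTANS-like genes. Of these, 7 were tested, 0 were called and 7 had a fold above 0, with a median log2 fold change of 0.37. An unadjusted limma p below 0.05 was reached by 2 of 7 (28.6%), near the 25.7% of all tested loci. The cultivars did not overlap at the same number, 2 of 7 (28.6%). Over all tested loci the share was 16.4% in this direction and 31.7% in either. On the log2(FPKM + 1) scale with all libraries, the largest fold was that of CO1 (Solyc02g089540), a CONSTANS-like gene. It was at 5.56, 17.1 and 11.6 FPKM in monomaker and at 22.1, 27.1 and 21.2 FPKM in Compound raceme, so the cultivars did not overlap, with a log2 fold change of 1.09 (SE 0.36, 95% interval 0.24 to 1.94, adjusted p = 0.127 in limma). Without monomaker 1 it was 0.69, below the 1.23 of Solyc05g007880 in that fit, and on the linear scale the means of CO1 differed 2.06-fold against 2.17-fold for Solyc05g007880. Monomaker 1 was the lowest library, as it was for both GIGANTEA genes. Solyc05g007880 was at 6.87, 5.30 and 2.63 FPKM in monomaker and at 15.3, 9.59 and 7.16 FPKM in Compound raceme. Its cultivars did not overlap either, and its log2 fold change was 0.99 (SE 0.36, adjusted p = 0.153 in limma). CO3 (Solyc02g089500), the locus too low for the test, was at 0.19 to 0.37 FPKM in monomaker and at 0.54 to 0.83 FPKM in Compound raceme, and Dof22 (Solyc06g069760), of the family of the CDF repressors, had a log2 fold change of 0.37 (adjusted p = 0.267 in limma).

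Among 10751 other tested loci whose mean reached 10 FPKM, those whose pattern over the 6 libraries was most like that of LHY were Solyc06g066740 and Solyc06g071580, with Pearson correlations of 0.997 and 0.993 on the log2(FPKM + 1) scale. Solyc06g071580 was at 13.6, 9.03 and 5.53 FPKM in monomaker and at 13.5, 12.7 and 13.3 FPKM in Compound raceme, with the same low monomaker 3. For GIGANTEA A they were Solyc04g054430 and Solyc09g089730, at 0.978 and 0.963. Solyc04g054430 was at 7.27, 17.4 and 24.3 FPKM in monomaker and at 14.1, 20.4 and 36.8 FPKM in Compound raceme, with the same low monomaker 1. Of the 10751 loci, 178 correlated with LHY above 0.95 and 3 with GIGANTEA A; the 6 libraries behind each value are the same and share their scaling.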

How the data were processed

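RNA was extracted with Trizol and sequenced from BGI500 libraries, per the labels' protocols. Tools named in the submitters' processing notes, with no role given, are RSEM 1.2.12, DESeq2 1.4.5, Bowtie2 2.2.5 and HISAT2 2.0.4. The authors deposited FPKM values of 6 libraries in 31139 rows, rounded to 2 decimals, with coordinates for 7639 rows on chromosomes named as in SL3.0, per the file headers. The authors' log2 ratio, p-value and q-value stand beside them, per the file headers; how these were computed, the annotation release and the use of strand are not given in the sources used here. Without counts the depth of each library is unknown, so no counting interval is given. FPKM summed to 674654 to 750250 per library, and 22755 to 23027 loci were above 0.

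Rows of a locus were summed, which joined 2 rows at 5699 loci and left 25440 loci. Loci averaging 1 FPKM or more were transformed to log2(FPKM + 1) and fitted in limma (3.58.1; R 4.3.3) with cultivar as the sole term and a variance trend on mean level. Benjamini-Hochberg adjustment covered all 18802 loci, with calls below 0.05. The script was tested on simulated data. The clock genes, the further lists and the alternatives were chosen with earlier results of these data known. All 7 genes are named, with the 2 largest folds of each further list and the 2 most correlated loci of LHY and of GIGANTEA A. Names of marker and further loci are published assignments as recalled. For LNK1, CO1, CO3 and Dof22, RefSeq (SLM_r2.1) lists the symbol on the same chromosome, with a place among its genes that differed by at most 0.03 of their number, which cannot tell neighbours apart. Protein, promoter and genome sequences were not used here.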

Additional observations from a re-analysis of the deposited data

How the results depend on the processing

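Of 16 alternatives in pseudocount, filter, scaling, row handling, variance model, block and libraries, 14 left the count of called clock genes at 0. It was 1 without Compound raceme 1, and 1 without both libraries numbered 1, the gene being TOC1-like B each time (log2 fold change 2.13, adjusted limma p of 0.0364 and 0.0317). These calls set zeros against the 2 values that admitted the gene to the test, so they support nothing. Leaving out each library gave counts of 0 to 1 for the clock genes. Among the further clock loci the count was 1 without both libraries numbered 1 (Solyc07g017750) and 0 in the other 15 alternatives. The fit without both libraries numbered 1 called 1921 of the 18738 loci it tested. Among day-length loci the count was 0 in all 16. With 1 library left out at a time, the fold of GIGANTEA B ran from -0.02 to 0.26 and that of EID1 from -0.04 to 0.18. GIGANTEA B reversed to -0.02 without monomaker 1 and -0.12 without both libraries numbered 1, and EID1 to -0.04 without monomaker 2 and -0.01 without Compound raceme 3. LHY, LNK2 and GIGANTEA A kept folds above 0 in each alternative, at 0.24 to 0.81, 0.23 to 0.60 and 0.06 to 0.54. So did the TOC1-like genes where they were tested: A not with a minimum of 5 FPKM, and B neither there nor without Compound raceme 2 or 3. The TOC1-like B to LHY ratio, 0.91 higher in Compound raceme on the log2 scale, was 2.79 with a pseudocount of 0.1; the cause lies in its values of 0, to which the pseudocount is added. Scaling libraries to 1 total moved the median of all loci from 0.04 to 0.13 and that of the clock genes from 0.41 to 0.49.

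The replicate numbers were not taken as pairs. Deviations of same-numbered libraries from their cultivar's mean correlated at 0.03, 0.06 and 0.10, and not every library correlated best with its own number. With the replicate block the count of called clock genes was 0, and that of all loci went from 614 to 0. The number called over all loci ran from 6 to 2041 when 1 library was left out. It was 6 to 15 without monomaker 2, monomaker 3, Compound raceme 2 or Compound raceme 3. In those fits and with the block, a count of 0 clock genes says little.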
